A study of Mus musculus with 12 samples.

Results

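Cd34, Cd200, Cd44, Ly6a, Plet1 and Lrig1 encode cell surface proteins by which the bulge of the mouse hair follicle, and the isthmus above it, are recognised and sorted. The 6 genes were chosen by name, with earlier results of these data known, out of 21942 genes measured in hair follicle stem cells (HFSCs). All 6 were among the 17885 genes of the Eed iKO table and the 21915 genes of the hair cycle table, and all 6 passed the filter on low values in both.

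The bulge is the niche of the outer root sheath that holds the quiescent stem cells of the follicle, and the isthmus links it to the sebaceous gland and the epidermis. CD34 and CD200 are classical bulge markers, whereas PLET1 and LRIG1 are best known from the isthmus and the junctional zone, and Ly6a, which encodes Sca1, is high in the basal interfollicular epidermis and infundibulum and low in the bulge. CD44 is the main receptor of keratinocytes for hyaluronan, the large sugar polymer of the extracellular matrix, and is found on most basal keratinocytes.

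RNA-seq was carried out on 12 libraries of HFSCs sorted from the back skin of C57BL/6J mice, 3 libraries in each of 4 groups. The control group (genotype wildtype in the labels, ethanol only according to the methods) and the Eed iKO group were taken at P70, postnatal day 70, in the second telogen. Eed iKO mice were K15-CrePGR: Eed fl/fl, labelled Eed -/-. In them topical RU-486 for 7 days from P50 activates a Cre recombinase driven by the Krt15 promoter, so that Eed, a core subunit of Polycomb repressive complex 2 (PRC2), is deleted in the bulge and its progeny while other skin cells keep it. RU-486 and the deletion cannot be told apart here. The anagen group, from the growth phase of the follicle, was wildtype at P28-30, and the telogen group, from the resting phase, was wildtype at P50-52, so hair cycle phase and age cannot be told apart either. Every library came from cells positive for EpCAM, negative for Sca1, high for α6-integrin and positive for CD34. The proteins of Cd34 and Ly6a were therefore part of the sort, and a library holds only cells that carried CD34 and lacked Sca1 at their surface, whatever their mRNA level. Mice of both sexes were used, and the labels do not say whether the libraries of a group came from separate animals, so p-values measure the spread between these libraries.

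Values are normalized counts, which are read counts per gene divided by a size factor of the library. Between 33269583 and 57063586 reads stand behind each control and Eed iKO library. For the anagen and telogen libraries the depth is unknown. The tables were normalized separately, so no level was compared across them. Krt15, the defining keratin of the bulge, had the highest level per kb of transcript among genes with a known length in the control, Eed iKO and anagen groups and rank 2 in telogen. Eed itself stood at 1084, 1249 and 950.2 in the control libraries and at 933.3, 1361 and 1001.5 in the Eed iKO libraries (log2 fold change -0.01, SE 0.22, limma, adjusted p = 0.993). These whole-gene values do not resolve the deleted exons, and the mRNA level alone does not separate the libraries labelled Eed iKO from the libraries labelled control.

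Cd34 and Cd44 are the members that passed the test between anagen and telogen, and Lrig1 differs from the others in base composition, so the promoters of these 3 genes are shown. Each runs from 250 bases before to 50 bases after the start of the RefSeq gene (GRCm38.p6), 5′ to 3′ on the strand of the gene, with every CG dinucleotide, the base pair step that carries DNA methylation and is dense at many PRC2 targets, in capitals. Cd34 lies on the plus strand at chr1:194938571-194938870, Cd44 on the minus strand at chr2:102901616-102901915 and Lrig1 on the minus strand at chr6:94700096-94700395.
Cd34: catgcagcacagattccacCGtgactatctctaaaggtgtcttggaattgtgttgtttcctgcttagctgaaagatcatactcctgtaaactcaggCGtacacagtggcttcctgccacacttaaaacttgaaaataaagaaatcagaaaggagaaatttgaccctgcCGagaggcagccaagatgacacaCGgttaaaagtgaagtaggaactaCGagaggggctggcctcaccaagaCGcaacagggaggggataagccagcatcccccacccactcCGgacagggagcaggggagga
Cd44: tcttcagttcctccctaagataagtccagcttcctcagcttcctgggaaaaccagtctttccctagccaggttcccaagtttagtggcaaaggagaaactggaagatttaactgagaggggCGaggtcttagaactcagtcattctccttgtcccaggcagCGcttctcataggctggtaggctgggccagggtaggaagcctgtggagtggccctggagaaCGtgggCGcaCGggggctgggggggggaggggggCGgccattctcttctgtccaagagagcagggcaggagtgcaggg
Lrig1: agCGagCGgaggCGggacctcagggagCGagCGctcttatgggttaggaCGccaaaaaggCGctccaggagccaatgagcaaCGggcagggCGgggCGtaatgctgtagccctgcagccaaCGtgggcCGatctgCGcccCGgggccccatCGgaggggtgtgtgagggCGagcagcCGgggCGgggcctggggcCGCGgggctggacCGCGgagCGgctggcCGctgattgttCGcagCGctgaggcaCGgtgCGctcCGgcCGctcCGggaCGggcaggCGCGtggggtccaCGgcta

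The Lrig1 promoter held 35 CG dinucleotides and a GC content of 73%, more CG dinucleotides than 93.0% of the 32817 mouse promoters of the same length, whose median is 7. The promoters of Cd34, with 7, and of Cd44, with 6, were near or below that median, as were those of Cd200 with 8 and Plet1 with 5. No Ly6a promoter was used here. Of 6 short motifs searched on both strands, the Sp1 GC box GGGCGG, found in 35.6% of all promoters, occurred in Cd44, in Cd200 and at 2 places in Lrig1. The NFAT core GGAAAA, found in 23.3% of promoters, occurred in Cd44. Plet1 held the AP-1 motif TGANTCA, found in 7.81% of promoters, and the TATA box TATAAA, found in 13.6%. The TCF/LEF core CTTTGA (16.0% of promoters) and the E-box CACGTG (7.15%) were in none of the 5, and Cd34 held no match to any of the 6 motifs. A match is a description of the sequence and not a sign of binding.

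The anagen and telogen libraries address how the mRNA of these surface markers differs between growth and rest in cells that passed the sort. Cd34 was lower and Cd44 was higher in anagen, by 2.31-fold and 2.82-fold on the fitted log2 scale, and the other 4 members did not pass the test. The 2 members called, Cd34 lower and Cd44 higher, stand beside 11.6% of the 13457 genes tested that passed an adjusted p under 0.05 with limma (7.22% higher and 4.35% lower in anagen). At an unadjusted p under 0.05 there were 3 of the 6 members, Cd200 added, beside 27.3% of all genes. At the thresholds of the methods, a log2 fold change over 2 and an unadjusted p under 0.05, there were 0 of the 6, beside 5.1%. The median log2 fold change was -0.08 over the 6 members and 0.01 over all genes tested. In bulk RNA, fewer cells of a kind and less RNA per cell cannot be told apart.

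Cd34, the sialomucin by which bulge cells are sorted, had 2955, 3233 and 4144 normalized counts in anagen and 6433, 9159 and 8295 in telogen. The groups did not overlap, and the highest anagen library stayed below the lowest telogen library. The means were 3444 ± 622 (SD, n = 3) and 7963 ± 1393 (SD, n = 3), a log2 fold change of -1.21 (SE 0.20, 95% interval -1.66 to -0.76, limma, adjusted p = 0.00382). The call held in all 11 alternatives that give a fold change, between -1.35 and -1.10, with the highest adjusted p of 0.0478 when limma was run without an intensity trend. Among the 291 genes at least as abundant as Cd34 in this table, 21 were called lower in anagen. Whether called or not, 3 of the 291, Cd34 included, were lower by at least as much.

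Cd44 showed the opposite order, with 5618, 6327 and 6358 normalized counts in anagen against 1694, 2888 and 2050 in telogen. Every anagen library was above every telogen library. The means were 6101 ± 419 (SD, n = 3) and 2211 ± 613 (SD, n = 3), a log2 fold change of 1.497 (SE 0.21, 95% interval 1.03 to 1.97, limma, adjusted p = 0.00152). The call held in the same 11 alternatives, between 1.32 and 1.71, with adjusted p up to 0.0311. Of the 502 genes at least as abundant, 92 were called higher in anagen. Whether called or not, 18 of the 502, Cd44 included, were higher by at least as much. CD44 is known for isoforms made by alternative splicing, and the annotation gives it 8 coding transcripts of 1305 to 5614 bases with 9 to 19 exons. The values used here sum the gene, so a shift between isoforms was not tested.

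The ratio of Cd34 to Cd44 within a library does not depend on the size factor. It was 0.526, 0.511 and 0.652 in anagen and 3.80, 3.17 and 4.05 in telogen. All anagen ratios were below all telogen ratios. The groups of Cd34 and of Cd44 already lay apart in opposite directions, so this separation was fixed by the choice of genes. As the transcripts differ in length, the ratio serves to compare libraries and not the levels of the genes. The mean log2 ratio differed by -2.71, and the two-sided exact permutation test gave p = 0.1, the smallest that 3 libraries against 3 allow. Its outcome was fixed in the same way and adds no support.

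**Figure D1:**
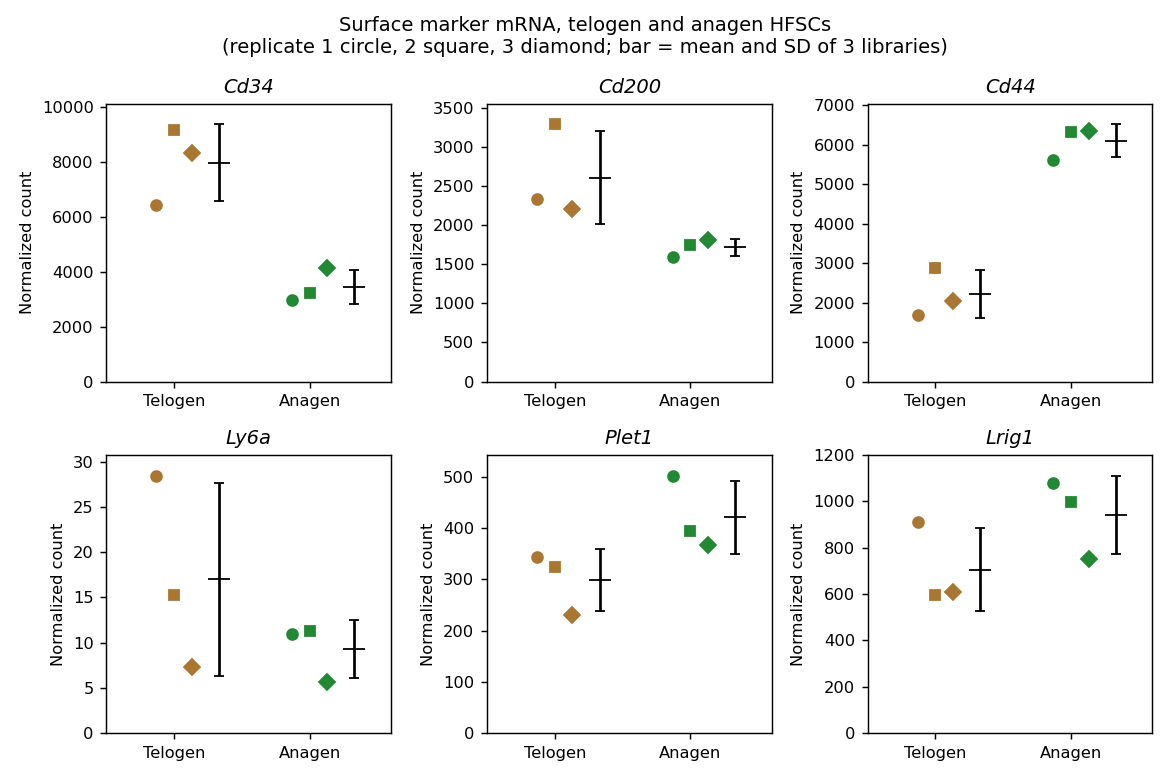
Normalized counts of the 6 surface marker genes in telogen (brown) and anagen (green) HFSCs, 1 point per library, with the mean and SD of 3 libraries beside each group and axes that start at 0. Cd34 is lower and Cd44 higher in every anagen library than in every telogen library, whereas the points of Ly6a and Lrig1 overlap.

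Cd200, an immunoglobulin superfamily protein that restrains myeloid cells through its receptor, had 1589, 1749 and 1810 normalized counts in anagen and 2333, 3294 and 2206 in telogen. The 3 telogen libraries were all above the anagen libraries. With a log2 fold change of -0.58 (SE 0.20, 95% interval -1.03 to -0.13) it did not pass correction (limma, adjusted p = 0.092), although its unadjusted p was 0.0155. Without single libraries the log2 fold change ranged from -0.69 to -0.40, with adjusted p from 0.0704 to 0.283.

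Plet1, a GPI-anchored protein of the upper follicle, had 503, 394 and 367 normalized counts in anagen and 344, 324 and 230 in telogen, without overlap. Its log2 fold change of 0.50 (SE 0.28, 95% interval -0.11 to 1.11) did not pass the test (limma, adjusted p = 0.270). Lrig1, a transmembrane protein that dampens signalling by receptors of the EGF family, had 1078, 995 and 753 in anagen against 912, 594 and 608 in telogen. The highest telogen library lay above the lowest anagen library, and the log2 fold change was 0.43 (SE 0.25, 95% interval -0.12 to 0.98, limma, adjusted p = 0.292). In all, 4 of the 6 members had groups that did not overlap, beside 33.3% of all genes tested.

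Ly6a was close to the limit of detection, with 10.9, 11.3 and 5.59 normalized counts in anagen and 28.5, 15.3 and 7.30 in telogen. Its groups overlapped, and its log2 fold change of -0.68 had an SE of 0.74 (95% interval -2.31 to 0.95, limma, adjusted p = 0.593). A fall of the size seen for Cd34 lies within this interval, so a difference was not detectable at this level.

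The other surface proteins of the gate moved as follows. Itga6, which encodes α6-integrin, the laminin receptor used for the high gate, was higher in anagen, with a mean of 11220 ± 604 (SD, n = 3) against 5871 ± 1473 (SD, n = 3) and a log2 fold change of 0.97 (SE 0.21, limma, adjusted p = 0.0144). This call was lost without anagen replicate 1 (adjusted p = 0.0726), without anagen replicate 2 (0.0671) and without an intensity trend (0.0923). Epcam, an epithelial adhesion protein, was at 1239 ± 180 (SD, n = 3) in anagen and 1408 ± 554 (SD, n = 3) in telogen and did not pass the test (limma, adjusted p = 0.852). Of the 4 gate genes, Cd34, whose protein had to be present, was thus lower in anagen and Itga6, whose protein had to be high, was higher.

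Telogen replicate 1 stood apart in the summed normalized count of the 16 bulge genes, at 441932 there and 881709 and 755066 in telogen replicates 2 and 3. Abundant genes weigh most in this sum, and the level of Krt15 per kb ranged from 83768 to 245156 among the telogen libraries. Telogen replicate 1 was also the lowest telogen library for both Cd34 and Cd44. Without it the log2 fold change was -1.35 for Cd34 (limma, adjusted p = 0.00126) and 1.32 for Cd44 (adjusted p = 0.00160). Markers of other states and cells were read beside these changes. All 10 proliferation markers were called higher in anagen, and their summed normalized count was 19065 to 29981 in anagen and 816 to 950 in telogen. Of 7 melanocyte markers, the summed level was 441 to 811 against 108 to 160, although Sox10 was listed at 0 in every library. Of 7 fibroblast markers the sum was 480 to 630 against 316 to 652, and of 8 endothelial markers it was 168 to 205 against 88.5 to 163, with Cdh5 and Cldn5 listed at 0. The summed Langerhans cell markers were at 90.1 to 190 in anagen and 152 to 423 in telogen, and the T cell markers at 251 to 365 and 176.4 to 248.8. Sums can hide single genes. Limma called 2 of 4 tested fibroblast, 1 of 3 endothelial and 1 of 4 melanocyte markers higher in anagen, beside 7.22% of all genes tested. It called 0 of 5 Langerhans cell and 0 of 3 T cell markers. The part of these differences in the values of Cd34 and Cd44 was not tested.

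To compare levels between genes, normalized counts were taken per kb of the longest coding transcript. In telogen the order was Cd34 (3118 ± 545 normalized counts per kb, SD, n = 3), Cd200 (1112 ± 254), Cd44 (394 ± 109), Plet1 (177 ± 36.2), Lrig1 (142 ± 36.3) and Ly6a (17.8 ± 11.2). Only Plet1 and Lrig1, among neighbours in this order, overlapped. In anagen Cd44 (1087 ± 74.6) stood between Cd34 (1349 ± 243) and Cd200 (731 ± 48.6), followed by Plet1 (250 ± 42.5), Lrig1 (190 ± 34.2) and Ly6a (9.70 ± 3.33), again with overlap of Plet1 and Lrig1 alone. The lowest anagen library of Cd34 was 1.02 times the highest of Cd44, and with the median in place of the longest transcript Cd44 (2527 per kb) would exceed Cd34 (1376 per kb) in anagen. The level of Cd34 in telogen was above that of 99.5% of the genes with a known length, and that of Ly6a above 51.4%. Genes at 0 count in these shares, and 4202 of the 21915 genes of the hair cycle table were at 0 in every library.

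The Eed iKO and control libraries address whether the mRNA of these surface markers differs between Eed iKO and control cells that passed the sort. Cells without CD34 or with Sca1 at their surface were sorted out, so a change of surface identity cannot be read here. None of the 6 members passed the test at an adjusted p under 0.05 with limma, and none had an unadjusted p under 0.05, beside 0.0267% of the 15008 genes tested with an adjusted p and 14.7% with an unadjusted p under 0.05. The unadjusted p of Cd34 lay just above that limit. The 4 genes called, Gm49369, Rps26, Prmt1 and Tsen34, are named only to complete that count. DESeq2 called 673 and edgeR 5 genes on the recovered reads, with 0 members in each. At the thresholds of the methods, here a log2 fold change over 1.5, there were 0 of the 6 members beside 1.75% of all genes. The median log2 fold change was -0.05 over the 6 members and 0.00 over all genes tested. For 0 of the 6 members did the groups fail to overlap, beside 20.2% of all genes tested.

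Cd34 had 47502, 37765 and 46265 normalized counts in the control libraries and 31535, 34014 and 38699 in the Eed iKO libraries. The highest Eed iKO library lay just above the lowest control library. The means were 43844 ± 5301 (SD, n = 3) and 34749 ± 3638 (SD, n = 3), a log2 fold change of -0.33 (SE 0.15, 95% interval -0.67 to 0.00, limma, adjusted p = 0.340). Leaving out single libraries gave -0.44 to -0.27 with adjusted p from 0.201 to 0.714, so the sign was negative each time and the test was never passed. The lower bound of the interval was smaller in size than the difference of -1.21 between anagen and telogen.

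Cd44 had 10125, 12541 and 14159 normalized counts in control and 13987, 14956 and 10653 in Eed iKO. The groups overlapped widely, and the log2 fold change was 0.10 (SE 0.17, 95% interval -0.28 to 0.49, limma, adjusted p = 0.825). The ratio of Cd34 to Cd44 was 4.69, 3.01 and 3.27 in control and 2.25, 2.27 and 3.63 in Eed iKO (exact permutation test, two-sided, p = 0.3). Eed iKO replicate 3 fell within the range of the control libraries, and Eed iKO replicates 1 and 2 were below it.

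Cd200 had 6642, 8987 and 8552 normalized counts in control against 6820, 8016 and 5678 in Eed iKO, with a log2 fold change of -0.24 (SE 0.17, 95% interval -0.62 to 0.14, limma, adjusted p = 0.542). Plet1 had 2568, 2445 and 1900 against 2703, 1984 and 1585, with -0.16 (SE 0.22, 95% interval -0.64 to 0.31, limma, adjusted p = 0.772). Lrig1 had 4255, 4233 and 4445 against 5606, 3837 and 4244, with 0.06 (SE 0.16, 95% interval -0.30 to 0.42, limma, adjusted p = 0.892). For these 3 genes the groups overlapped, and the Eed iKO values spread on both sides of the controls for Lrig1. All 3 intervals spanned 0.

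Ly6a had 27.1, 27.1 and 170 normalized counts in control and 66.7, 30.5 and 137 in Eed iKO, resting on 39, 25 and 188 reads and on 62, 23 and 139 reads. Replicate 3 was the highest library of both groups, and the log2 fold change of 0.38 had an SE of 0.83 (95% interval -1.47 to 2.22, limma, adjusted p = 0.873). Its sign turned when control replicate 1 (-0.06), control replicate 2 (-0.06) or Eed iKO replicate 3 (-0.15) was left out. The 8 markers of differentiated interfollicular epidermis, the compartment next to the Sca1-positive cells, summed to 28632, 22729 and 62083 in control and 32964, 22878 and 87240 in Eed iKO. They too were highest in replicate 3 of both groups, and their part in the Ly6a values was not tested. The summed T cell markers were at 248 to 332 in Eed iKO and 497 to 777 in control, the endothelial markers at 399.7 to 743 and 494 to 708, and the Langerhans cell markers at 420.2 to 961 and 242 to 520. Ly6a has close paralogs in the Ly6 family, among which reads could be split, so its level is uncertain.

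**Figure D2:**
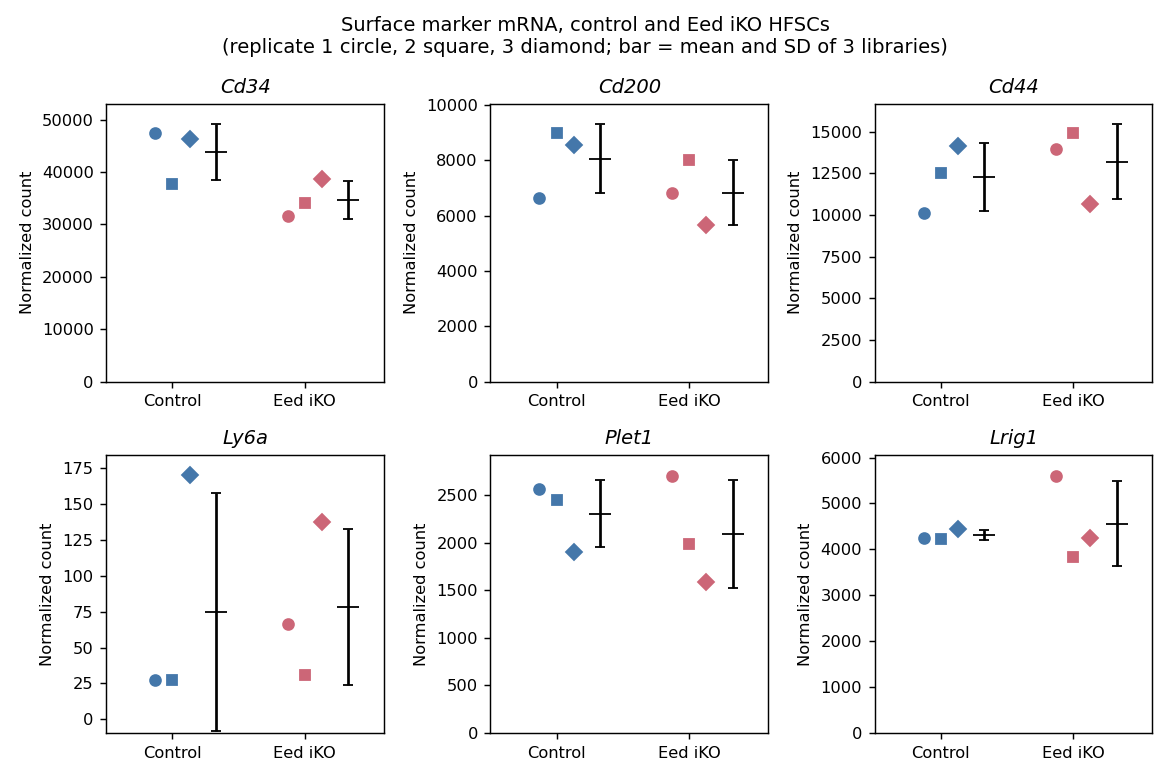
Normalized counts of the 6 surface marker genes in control (blue) and Eed iKO (red) HFSCs, 1 point per library, with the mean and SD of 3 libraries beside each group. For every gene the points of the 2 groups overlap, and Ly6a is highest in replicate 3 of both groups, where the SD bar of control reaches below 0.

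Itga6 was at 25768 ± 3045 (SD, n = 3) in Eed iKO and 19294 ± 1128 (SD, n = 3) in control, without overlap, and did not pass the test (log2 fold change 0.41, limma, adjusted p = 0.207). The summed proliferation markers were at 11672, 11506 and 1321 in Eed iKO and 1964, 4748 and 1656 in control, so that Eed iKO replicate 3 stood apart from the other Eed iKO libraries and below all controls. Without this library the 6 members still gave 0 calls, with Cd34 at -0.41 (limma, adjusted p = 0.201).

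The order per kb in control was Cd34 (17167 ± 2075 normalized counts per kb, SD, n = 3), Cd200 (3434 ± 532), Cd44 (2187 ± 362), Plet1 (1364 ± 210), Lrig1 (871 ± 23.5) and Ly6a (78.4 ± 86.7), with no overlap between neighbours. The same order of means held in Eed iKO, where Cd200 (2913 ± 498) overlapped Cd44 (2351 ± 402) and Plet1 (1238 ± 336) overlapped Lrig1 (922 ± 187). With the median in place of the longest transcript, Cd44 (5084 per kb in control) would stand above Cd200 (3637 per kb) in both groups.

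**Figure D3:**
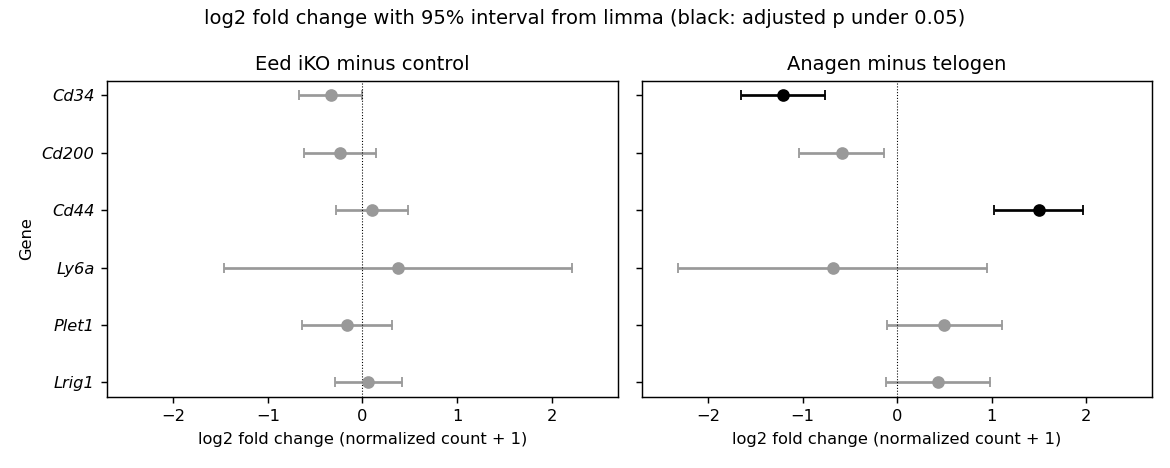
The log2 fold change of each surface marker gene on the log2(normalized count + 1) scale, with its 95% interval from limma, for Eed iKO minus control (left) and anagen minus telogen (right). Black marks an adjusted p under 0.05, which holds for Cd34 (-1.21) and Cd44 (1.497) between anagen and telogen and for no gene between Eed iKO and control.

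The genes that act with the members were read next, beginning with genes that make, bind or break down hyaluronan and genes for other ligands of CD44. Of 12 tested in the hair cycle libraries, 2 were higher and 2 lower in anagen, beside the 11.6% of all genes called. Has2, the main hyaluronan synthase of keratinocytes, had 184, 215 and 262 normalized counts in anagen and 1003, 1245 and 1276 in telogen (log2 fold change -2.41, SE 0.24, limma, adjusted p = 0.000167). Has2 was thus 5.33-fold lower on the fitted log2 scale where Cd44, which encodes a receptor for its product hyaluronan, was higher. Hmmr, a hyaluronan-binding protein that also serves the mitotic spindle, had 1260, 1007 and 611 against 55.9, 73.2 and 84.6 (log2 fold change 3.69, SE 0.34, limma, adjusted p = 9.56e-05) and moved with the proliferation markers. Both calls held in all 11 alternatives. The hyaluronan-binding proteoglycan Vcan had 76.2, 75.0 and 158 normalized counts in anagen against 15.6, 0 and 2.998 in telogen (limma, adjusted p = 0.0103, 0.0572 without anagen replicate 3). Cemip2, a cell surface hyaluronidase, was lower in anagen, at 889 ± 87.4 against 1469 ± 43.2 (SD, n = 3; limma, adjusted p = 0.0335), a call lost without anagen replicate 1, 2 or 3 or telogen replicate 2 or 3 (adjusted p = 0.0549 to 0.164) and without an intensity trend (0.101). The other synthases, Has1 at 17.9 ± 4.53 in anagen and 40.6 ± 24.9 in telogen and Has3 at 89.5 ± 50.3 and 63.9 ± 36.7 (SD, n = 3), did not pass the test.

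Of 11 genes for linkers of CD44 to the cytoskeleton, splicing factors and sheddases, none passed the test between anagen and telogen with limma. An unadjusted p under 0.05 was found for 2 of them. The share over all genes tested, to be read beside this count and those below, was 27.3%. The smallest p belonged to Adam10, a sheddase of CD44, at 1005 ± 104 against 614 ± 112 (SD, n = 3; log2 fold change 0.72, limma, adjusted p = 0.0611, and 0.0387 without telogen replicate 2). None of the 4 relatives and partners of CD34 passed either (2 at an unadjusted p under 0.05), and Podxl, a sialomucin of the same family, stood at 24.7 ± 23.8 and 3.80 ± 6.57 (SD, n = 3; limma, adjusted p = 0.115, and 0.0427 without telogen replicate 3). Neither of the 2 genes on the side of the CD200 receptor was called, nor were any of the 4 genes linked to immune privilege of the follicle, with 0 at an unadjusted p under 0.05 in both lists, where Cd274 had the smallest p at 29.5 ± 17.5 and 84.6 ± 62.0 (SD, n = 3; limma, adjusted p = 0.253).

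Around LRIG1, 1 of 12 receptors and regulators was called, beside 11.6% of all genes. Ret, a receptor tyrosine kinase that LRIG1 is known to restrain, was at 59.8 ± 14.0 in anagen and 12.9 ± 4.95 in telogen (SD, n = 3; log2 fold change 2.16, limma, adjusted p = 0.0312), a call lost without anagen replicate 1, 2 or 3 or telogen replicate 2 or 3 (adjusted p = 0.0509 to 0.160) and without the filter on low values (0.0521). Egfr, the best known target of LRIG1, was at 7905 ± 1122 and 8840 ± 864 (SD, n = 3) and was not called, with a log2 fold change of -0.17 (limma, adjusted p = 0.592). The relatives Lrig2 and Lrig3 were at 1194 ± 102 and 607 ± 84.0 in anagen and at 1451 ± 636 and 1046 ± 222 in telogen (SD, n = 3), and neither passed the test. None of the 7 EGF family ligands was called, and 4 had an unadjusted p under 0.05, beside 27.3% of all genes tested. The groups of 4 did not overlap, beside 33.3% of all genes. Hbegf had the smallest p among them, at 718 ± 24.3 against 271 ± 184 (SD, n = 3; log2 fold change 1.79, limma, adjusted p = 0.0621). Hbegf was called without telogen replicate 1 (log2 fold change 2.29, adjusted p = 0.0204) and without telogen replicate 3 (0.95, adjusted p = 0.0435).

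For the GPI-anchored members Ly6a and Plet1, none of 8 tested genes of the Ly6 family and none of 22 tested genes of GPI anchor synthesis passed between anagen and telogen with limma. In these lists 1 and 4 genes had an unadjusted p under 0.05, beside 27.3% of all genes tested. Lynx1 had the smallest p of the Ly6 family, at 108 ± 25.7 and 37.4 ± 25.8 (SD, n = 3; limma, adjusted p = 0.0800, and 0.0268 without telogen replicate 1). Pgap2, which remodels the anchor lipid, had the smallest p of the second list, at 757 ± 52.7 and 1259 ± 232 (SD, n = 3; limma, adjusted p = 0.0519, 0.0490 with TMM scaling and 0.0492 without telogen replicate 3).

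Of 18 other surface proteins of the follicle, 5 were higher and 1 was lower in anagen, beside 7.22% and 4.35% of all genes tested. With limma 13 of the 18 had an unadjusted p under 0.05, beside 27.3% of all genes tested. For 15 of the 18 the groups did not overlap, beside 33.3% of all genes tested. Itgb6, the β6 chain of an integrin that activates TGF-β, had 7783, 8316 and 8290 normalized counts in anagen and 2526, 2637 and 3024 in telogen (log2 fold change 1.58, SE 0.17, limma, adjusted p = 0.000214). Tfrc, the transferrin receptor, had 1033, 1323 and 907 against 376, 176 and 226 (log2 fold change 2.12, SE 0.31, limma, adjusted p = 0.00160). Both calls held in all 11 alternatives. Dpp4, a surface peptidase, was also higher (log2 fold change 3.58, limma, adjusted p = 0.00938, and 0.0616 without anagen replicate 2), as were Itga6 and Mcam, the last named only to complete the count. Prom1, which encodes CD133, was lower (log2 fold change -1.93, limma, adjusted p = 0.0465), a call lost without any of the 6 libraries in turn (adjusted p = 0.0714 to 0.154), without the filter on low values (0.0765) and with a pseudocount of 0.1 (0.0539).

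**Figure D4:**
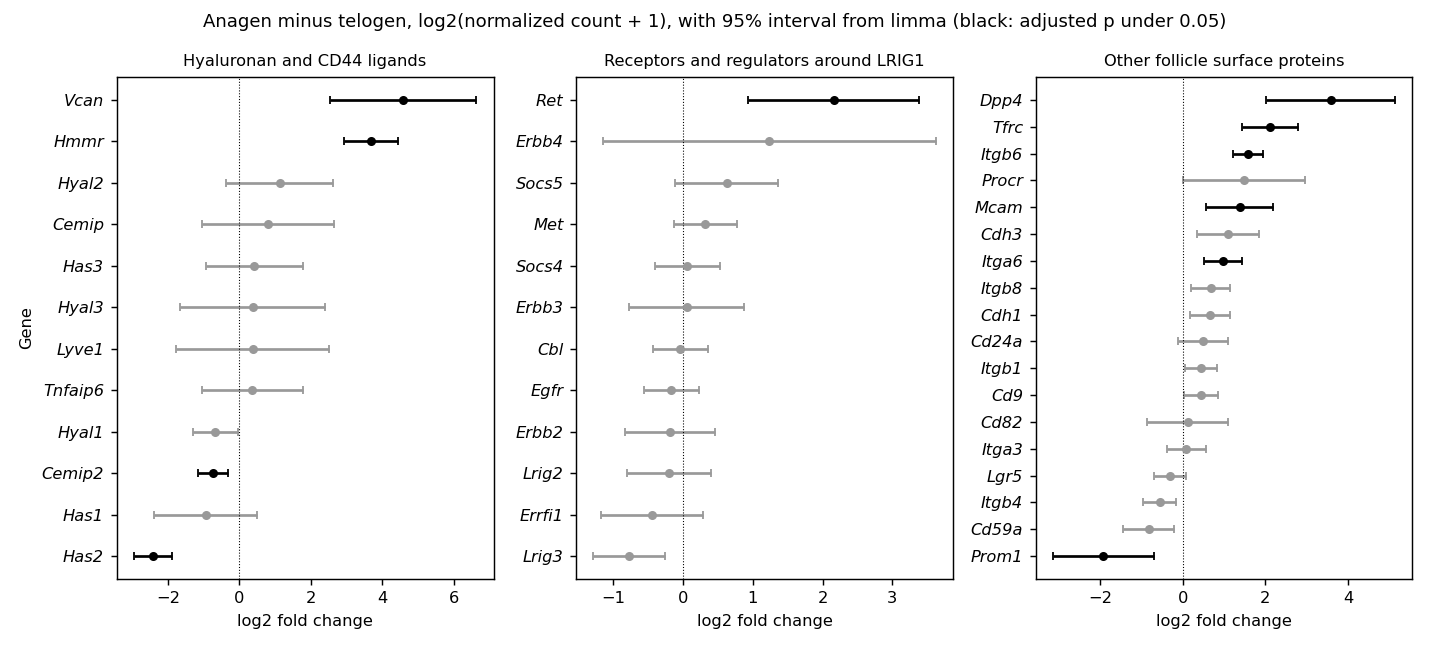
The log2 fold change between anagen and telogen, with its 95% interval from limma and an adjusted p under 0.05 in black. Shown are hyaluronan genes and CD44 ligands (left), receptors and regulators around LRIG1 (middle) and other surface proteins of the follicle (right). Has2 (-2.41) and Hmmr (3.69) lie on opposite sides of 0 in the left panel, and Ret (2.16) is the only called gene of the middle panel.

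Among 16 bulge genes, Postn, a matricellular protein, was the only gene called by limma between anagen and telogen, beside 11.6% of all genes, at 32328 ± 4559 against 161188 ± 22803 (SD, n = 3; log2 fold change -2.32, limma, adjusted p = 7.5e-05). The median log2 fold change of the list was -0.16, with a range from -2.32 to 0.83. With limma 7 of the 16 had an unadjusted p under 0.05, beside 27.3% of all genes tested. For 9 of the 16 the groups did not overlap, beside 33.3% of all genes tested. Of the 5 tested isthmus and upper follicle genes, Lgr6, an R-spondin receptor, was at 3823 ± 541 against 2192 ± 377 (SD, n = 3; log2 fold change 0.81, limma, adjusted p = 0.0275), and Gli1, a target of Hedgehog signalling, at 230 ± 77.8 against 80.2 ± 24.1 (log2 fold change 1.49, limma, adjusted p = 0.0387). Both were higher in anagen, beside 7.22% of all genes tested. The Lgr6 call was lost without any of the anagen replicates, and the Gli1 call without anagen replicate 1 or 2 or telogen replicate 2 or 3, with adjusted p up to 0.122 and 0.181. Both were also lost without an intensity trend (0.117 and 0.0719), and that of Gli1 without the filter on low values (0.0509). Plet1 and Lrig1, the isthmus members, had positive log2 fold changes of 0.50 and 0.43 that did not pass the test.

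Between Eed iKO and control limma called 0 of the 124 tested genes of these lists, beside 0.0267% of all genes tested. The unadjusted p of 19 was under 0.05, beside 14.7% of all genes tested. On recovered reads edgeR called 0 of them and DESeq2 called 7 (Mif, Cd9, Krt14, Fgf18, Hyal3, Pigb and Pigv), beside 4.48% of all genes with DESeq2. Fgf18 and Pigv are named to complete that count. With limma the lowest adjusted p belonged to Mif, a cytokine linked to immune privilege of the follicle, at 7999 ± 1700.2 in Eed iKO and 3559 ± 427 in control (SD, n = 3; log2 fold change 1.15, limma, adjusted p = 0.0754). Cd9, a tetraspanin, followed at 17377 ± 3286 and 9332 ± 1118 (SD, n = 3; log2 fold change 0.89, limma, adjusted p = 0.0902). For both, the 3 Eed iKO libraries were above the 3 control libraries. Mif and Cd9 passed with DESeq2 (adjusted p = 5.51e-06 and 0.000394) and with limma without Eed iKO replicate 3 (0.00971 and 0.0155), as did the keratin Krt14 (0.000771 and 0.0498), whose adjusted p over all libraries was 0.104 with limma. Has2, at 676 ± 286 and 695 ± 63.4, Hmmr, at 457 ± 294 and 203 ± 113, and Egfr, at 30705 ± 1249 and 34046 ± 2437 (SD, n = 3), did not pass the test.

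The genes whose profiles over the 12 libraries were nearest to each member were found among 13362 genes that passed the filter in both tables, by the root mean square (RMS) difference of log2 values centred within each table. Nearest to Cd34 were P3h2 at an RMS difference of 0.14 and Itga2 at 0.14, where the median gene was at 0.64. Nearest to Cd44 were Lasp1 at 0.12 and Inhbb at 0.17, with a median of 0.72. Cd200 was nearest to Lztfl1 (0.10) and Psme1 (0.11), Plet1 to Crk (0.14) and Tmx2 (0.15), and Lrig1 to Snx5 (0.14) and Zfp655 (0.14), beside medians of 0.53, 0.54 and 0.51. The nearest genes to Ly6a, Acer1 (0.32) and Ptgs1 (0.43), were farther away. Between anagen and telogen the log2 fold changes were -1.23 for P3h2, -0.93 for Itga2, 1.57 for Lasp1 and 1.46 for Inhbb. These genes were chosen by their likeness to Cd34 or Cd44 over the same libraries. Their direction therefore follows from the choice and adds no support. The likeness is a description over libraries that share normalization and groups.

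By the GENCODE vM21 annotation (GRCm38), Cd34 (ENSMUSG00000016494.9) spans chr1:194938819-194961279 on the plus strand and Cd44 (ENSMUSG00000005087.17) chr2:102811141-102901665 on the minus strand. Cd200 (ENSMUSG00000022661.14) spans chr16:45382135-45409053 and Ly6a (ENSMUSG00000075602.10) chr15:74994877-74998031, both on the minus strand. Plet1 (ENSMUSG00000032068.14) spans chr9:50494525-50505482 on the plus strand and Lrig1 (ENSMUSG00000030029.14) chr6:94604529-94700158 on the minus strand. Exon bases shared with genes on the opposite strand made up 13.4% for Plet1, with Plet1os, 2.58% for Lrig1, with Slc25a26, and 2.03% for Cd34, with Gm16897. The sources used here do not say that reads were counted by strand, so reads from these stretches cannot be assigned to either partner, and the values of Plet1 are the least certain in this respect.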

How the data were processed

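RNA-seq was read from 12 libraries of sorted HFSCs, grouped by the sample labels into control, Eed iKO, anagen and telogen. Per the labels and methods, the authors amplified total RNA (NuGEN Ovation V2) and quantified reads with kallisto 0.42.5 against GENCODE vM20 (mm10). For each comparison they deposited a table of signal, namely read counts per gene divided by DESeq2 size factors. Per the methods, the authors tested protein-coding genes above a TPM minimum between Eed iKO and control. The values used here cover 17885 genes, of which 16491 to 16772 were above 0 in a library. Their deposited fold changes and p-values were not used.

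The Eed iKO values could be turned back into whole reads (33269583 to 57063586 per library), since 100% of them were whole multiples of a constant of the library (within 0.01 reads). The low values of the hair cycle table gave no such constant, and its depth is unknown. The design named edgeR for counts. As the values are normalized, groups were compared with limma 3.58.1 (R 4.3.3) on log2(normalized count + 1), with an intensity trend, over all genes that passed filterByExpr (minimum 10), with Benjamini-Hochberg adjustment. Fold changes on this scale understate those of low genes. Genes were called at an adjusted p under 0.05. Ratios were compared with exact permutation tests.

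The members and gene lists were chosen with earlier results of these data known. Genes named are the members, Eed, the sort gate genes, the called genes of each list (at most 3 per direction, or the gene with the smallest p where none was called) and the 2 nearest profiles per member. Has1, Has3, Egfr, Lrig2, Lrig3, Podxl, Mcam, Fgf18, Pigv and Cdh3, and Has2, Hmmr and Egfr in the Eed iKO comparison, were named beside the rule after their values were seen. Promoters were read from RefSeq (GRCm38.p6), where 5 of 6 members matched. Alternatives were a pseudocount of 0.1, no filter, TMM scaling, no trend, a block for the replicate number, omission of each library, the fold thresholds of the methods (log2 1.5 and 2, unadjusted p), and edgeR 4.0.16 and DESeq2 1.42.0 on recovered reads. In simulated tables where 200 genes were moved by 2.5 on the log2 scale, limma recovered 76.5% with 17 false calls among 14984 genes for the Eed iKO table and 76.5% with 7 false calls among 13457 genes for the hair cycle table. No member changed by that much in either comparison, and the recovery of smaller changes was not simulated.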

Additional observations from a re-analysis of the deposited data

How the results depend on the processing

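Cd34 and Cd44 kept their direction and their call between anagen and telogen under all 11 alternatives that give a fold change, and under these no other member was called. With the thresholds of the methods (a log2 fold change over 2 and an unadjusted p under 0.05) 0 members were called, since neither reached that size. The 6 members gave 0 calls between Eed iKO and control under every alternative run, while the sign of 4 of them turned without single libraries. The ranges were -0.029 to 0.25 for Cd44 (-0.029 without control replicate 1), -0.15 to 1.25 for Ly6a (-0.06 without control replicate 1 or 2, -0.15 without Eed iKO replicate 3), -0.37 to 0.019 for Plet1 (0.019 without Eed iKO replicate 3) and -0.095 to 0.18 for Lrig1 (-0.095 without Eed iKO replicate 1). Outside the members, Eed ranged from -0.17 to 0.10 without single libraries (positive without control replicate 2, at 0.094, or Eed iKO replicate 1 or 3, at 0.10 and 0.051) and was 0.0049 with edgeR and 0.0025 with DESeq2, and Cst6 ranged from -0.046 without Eed iKO replicate 1 to 0.81. Between anagen and telogen, Epcam ranged from -0.48 to 0.14 (0.018 without anagen replicate 3, 0.14 without telogen replicate 1, 0.019 without telogen replicate 2) and Eed from -0.029 without telogen replicate 2 to 0.32.

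Over all genes, the 4 calls between Eed iKO and control became 2 without an intensity trend, 673 with DESeq2, 263 at the thresholds of the methods and 1 to 188 without single libraries (188 without Eed iKO replicate 3). The 1556 calls between anagen and telogen became 842 without a trend, 686 at the thresholds of the methods and 590 to 1534 without single libraries. The causes were not tested. The replicate number as a block gave 424 and 1224 calls, with 0 and 2 members. Among the partner genes the block added Mif, Cd9, Krt14, Fgf18 and Ly6g6c between Eed iKO and control (adjusted p of Mif 0.00368) and Hbegf (0.0276), Fgf18 and Cdh3 between anagen and telogen, and lost Cemip2 (0.0785), Ret (0.0513), Prom1 (0.0828) and Mcam there. Deviations of same-numbered libraries correlated at 0.04, 0.07 and 0.19 in the Eed iKO table and at -0.03, -0.07 and -0.03 in the hair cycle table, so the numbers are not shown to pair libraries. There were 3 libraries per group, and 23 to 188 reads for Ly6a in the control and Eed iKO libraries. Where an interval given spans 0, changes of a size within it cannot be told from 0.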
